A study of Mus musculus with 32 samples.

Results

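The cell division genes are 44 genes chosen by symbol, among 55291 genes listed in the sorted astrocyte table. They are 23 genes of G2 phase and mitosis, 18 genes of S phase and DNA replication, and 3 genes of G1 phase (Ccnd1, Ccnd2 and Cdk4). All 44 were present in each of the 4 count tables. The RNA sequencing libraries came from mice that carry TDP-43_Q331K, a mutant form of an RNA-binding protein used to model amyotrophic lateral sclerosis. Every group, culture included, carried this genotype, and animals without it were not analysed here. Age by itself and the transgene acting over time therefore cannot be told apart. Astrocytes (ACSA2 selection, cortex and spinal cord) were taken at 3, 6 and 10 months, in 4, 5 and 2 libraries. Cells of the oligodendrocyte lineage (O4 selection, same tissues) were taken at 6 and 3 months, in 4 libraries each. Microglia (Cd11b selection, cortex alone) were taken at 10 and 3 months, in 4 and 3 libraries. Cultured primary astrocytes, replated after 14 days, received 40 µM Omomyc for 48 h or vehicle, in 3 libraries each. The promoter of the transgene, the number of animals in a library and the age of the mice behind the cultures are not given in the sources used here. Where the labels do not tie libraries to separate animals or cultures, a p-value measures only the spread between libraries.

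Cells copy their DNA in S phase and part the copies in mitosis, and the genes for each step are transcribed in separate waves. E2F factors, released from RB family proteins when D cyclins activate CDK4 and CDK6, switch on the S phase genes. The mitotic wave follows through B-MYB, FOXM1 and the MuvB complex, whose subunit LIN54 binds the cell cycle genes homology region (CHR) of mitotic promoters, often near CCAAT boxes bound by NF-Y. In resting cells the DREAM complex, built on the same MuvB core, represses both sets. Adult astrocytes and mature oligodendrocytes divide little, and oligodendrocyte precursors are the main dividing neural cells outside the germinal zones. MYC drives entry into the cycle, and Omomyc is a MYC-derived miniprotein that displaces MYC from DNA.

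The promoters of the 2 main classes differed in the motifs they hold. Promoter sequences from 250 bases before to 50 bases after the start (RefSeq, build GRCm38.p6) matched 36 of the 44 members in 39 entries, and no sequence was used for Tpx2, Ccnd1, Mcm4, Aurkb, Ccnd2, Ccna2, Ccne2 and Kif20a. The CHR letters TTTGAA, searched on both strands, stood in 15 of 20 mitotic entries (75.0%), in 1 of 18 S phase entries (5.56%) and in 17.9% of all 32851 promoters. The S phase exception was Mcm2. CCAAT stood in 18 of 20 mitotic entries (90.0%), 12 of 18 S phase entries (66.7%) and 37.4% of all promoters. Either of the E2F motifs, written TTCCCGC in its first and TTGGCGC in its second form, stood in 3 of 20 mitotic entries (Ccnb1, Cdk1 and Mki67), 10 of 18 S phase entries (55.6%) and 6.81% of all promoters. The E-box CACGTG bound by MYC stood in 0 of 20 mitotic entries, in 1 of 18 S phase entries (5.56%), that of Tyms, and in the 1 G1 entry, that of Cdk4, against 7.15% of all promoters. A match is a description of the letters, not of a site in use.

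The 3 mitotic genes below passed the test with age in astrocytes or oligodendrocytes. Capitals mark the CHR letters, the CCAAT box and the E2F letters, each on either strand. Mki67 holds 2 CHR and 3 CCAAT matches and 1 E2F match, Top2a 2 CHR and 6 CCAAT matches, and Cenpf 1 CHR and 2 CCAAT matches.
Mki67 (chr7:135716330-135716629, minus strand): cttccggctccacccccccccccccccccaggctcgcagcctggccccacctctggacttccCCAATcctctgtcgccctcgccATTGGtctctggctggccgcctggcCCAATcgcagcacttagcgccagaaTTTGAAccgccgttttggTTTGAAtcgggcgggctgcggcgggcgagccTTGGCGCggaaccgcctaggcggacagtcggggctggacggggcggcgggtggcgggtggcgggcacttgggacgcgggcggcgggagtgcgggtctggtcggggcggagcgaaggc
Top2a (chr11:99024140-99024439, minus strand): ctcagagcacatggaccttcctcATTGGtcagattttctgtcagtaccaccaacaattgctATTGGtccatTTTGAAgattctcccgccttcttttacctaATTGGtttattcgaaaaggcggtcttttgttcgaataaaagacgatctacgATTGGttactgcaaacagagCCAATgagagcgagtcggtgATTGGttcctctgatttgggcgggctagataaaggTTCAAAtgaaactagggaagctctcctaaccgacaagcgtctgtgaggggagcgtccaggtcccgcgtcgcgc
Cenpf (chr1:189688037-189688336, minus strand): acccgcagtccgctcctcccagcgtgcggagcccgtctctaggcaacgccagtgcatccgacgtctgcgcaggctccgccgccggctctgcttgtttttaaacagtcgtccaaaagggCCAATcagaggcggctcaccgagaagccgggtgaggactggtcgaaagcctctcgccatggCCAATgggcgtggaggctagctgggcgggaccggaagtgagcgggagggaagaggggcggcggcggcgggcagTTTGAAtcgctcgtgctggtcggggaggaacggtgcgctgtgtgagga

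The next 3 are the S phase genes that passed the age test in astrocytes (Pcna) or oligodendrocytes (Mcm2 and Cdk2), in the same notation. Mcm2 holds 1 CHR match at base -70 from the start, and Cdk2 holds 2 E2F matches on the reverse strand, at bases -140 and -10.
Pcna (chr2:132253131-132253430, minus strand): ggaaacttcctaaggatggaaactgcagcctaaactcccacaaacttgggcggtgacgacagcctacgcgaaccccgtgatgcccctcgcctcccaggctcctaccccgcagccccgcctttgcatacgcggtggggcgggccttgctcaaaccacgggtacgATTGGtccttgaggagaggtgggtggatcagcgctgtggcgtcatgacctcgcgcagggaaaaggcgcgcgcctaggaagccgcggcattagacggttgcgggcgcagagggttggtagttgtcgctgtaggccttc
Mcm2 (chr6:88898731-88899030, minus strand): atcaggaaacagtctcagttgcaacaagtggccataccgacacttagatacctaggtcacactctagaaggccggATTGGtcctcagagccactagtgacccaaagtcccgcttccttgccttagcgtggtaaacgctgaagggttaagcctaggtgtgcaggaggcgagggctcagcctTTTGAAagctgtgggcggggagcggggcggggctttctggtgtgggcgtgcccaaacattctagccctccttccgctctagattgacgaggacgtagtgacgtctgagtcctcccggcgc
Cdk2 (chr10:128705002-128705301, minus strand): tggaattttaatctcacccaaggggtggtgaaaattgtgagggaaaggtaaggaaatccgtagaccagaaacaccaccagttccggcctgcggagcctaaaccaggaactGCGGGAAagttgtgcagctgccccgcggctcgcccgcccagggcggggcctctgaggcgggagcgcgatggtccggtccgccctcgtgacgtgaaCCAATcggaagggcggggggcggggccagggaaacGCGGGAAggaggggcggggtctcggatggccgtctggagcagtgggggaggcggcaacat

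Libraries held 6151583 to 20763190 counts in astrocytes, 9752907 to 18598533 in oligodendrocytes, 4145129 to 5612071 in microglia and 30117025 to 37470972 in culture. Levels are CPM, the count of a gene over the library total of all counts, put on a common scale with TMM factors. The tables came from 3 library kits, so levels are compared within a table, or between astrocytes and oligodendrocytes, which share a kit. Markers fitted the labels: 10 astrocyte markers summed to 20949 to 31244 CPM in 3 and 6 month astrocytes, against 1856 to 4626 CPM in oligodendrocytes, and 10 myelin markers to 15659 to 34576 CPM against 99825 to 183510 CPM. The astrocyte sorts thus also held myelin transcripts. Of the oligodendrocyte libraries, 6 month replicate 1 stood apart: its log2 levels correlated with those of the other 6 month libraries at 0.963 to 0.970 across genes, while the others correlated at 0.979 to 0.988. Results in oligodendrocytes are given with and without it. Counting is not stated to use strand, so members that overlap a gene on the other strand are uncertain, among them Ccnd1 with LTO1 (818 exon bases), Kif20a with Cdc23 (977), Prc1 with Rccd1 (670), Cdk4 with Tspan31 (641), Ccna2 with Exosc9 (428), Ccnd2 with an antisense gene (372) and Cdk2 with Pmel (34). Of the other genes named, this also holds for Cdkn1a, Cdkn1c, Ccnd3, Ccnh, Cdk6, Rb1, Rbl2, Cdc25b, Gadd45a, Lig1, Gins2, Chaf1a and Kif4, and Foxm1 overlaps Tex52 on the same strand.

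In the sorted cells the S phase class took more counts than the mitotic class, and in culture each took about as many. Summed mitotic levels in astrocytes averaged 80.2, 55.1 and 58.3 CPM at 3, 6 and 10 months, and summed S phase levels 228, 211 and 208 CPM. In oligodendrocytes the mitotic sum averaged 24.5 CPM at 6 months, against 43.9 CPM at 3 months, and the S phase sum 194 CPM at 6 months, against 217 CPM at 3 months. The mitotic sums of the 4 libraries of each age did not overlap (22.4 to 28.0 CPM at 6 months, against 30.1 to 53.5 CPM at 3 months). The S phase sums were 230, 184, 186 and 176 CPM in 6 month replicates 1 to 4, against 209 to 231 CPM at 3 months. They overlapped only through 6 month replicate 1, the library that stood apart. Fewer cells in division and less RNA of these genes per cell cannot be told apart in such bulk libraries. The mitotic count divided by the S phase count, which does not depend on scaling, was 0.098 to 0.152 in 6 month oligodendrocytes and 0.141 to 0.256 in 3 month oligodendrocytes. In astrocytes it was 0.273 to 0.385 at 3 months, 0.196 to 0.326 at 6 months and 0.261 to 0.298 at 10 months. It was 0.398 to 0.522 in 10 month microglia and 0.469 to 0.685 in 3 month microglia, and 1.11 to 1.18 with Omomyc and 0.953 to 1.04 with vehicle. Between the ages of each sorted cell type the ratios overlapped, and between Omomyc and vehicle they did not. The astrocyte ratios lay above the oligodendrocyte ratios at 3 months and at 6 months, without overlap.

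**Figure D1:**
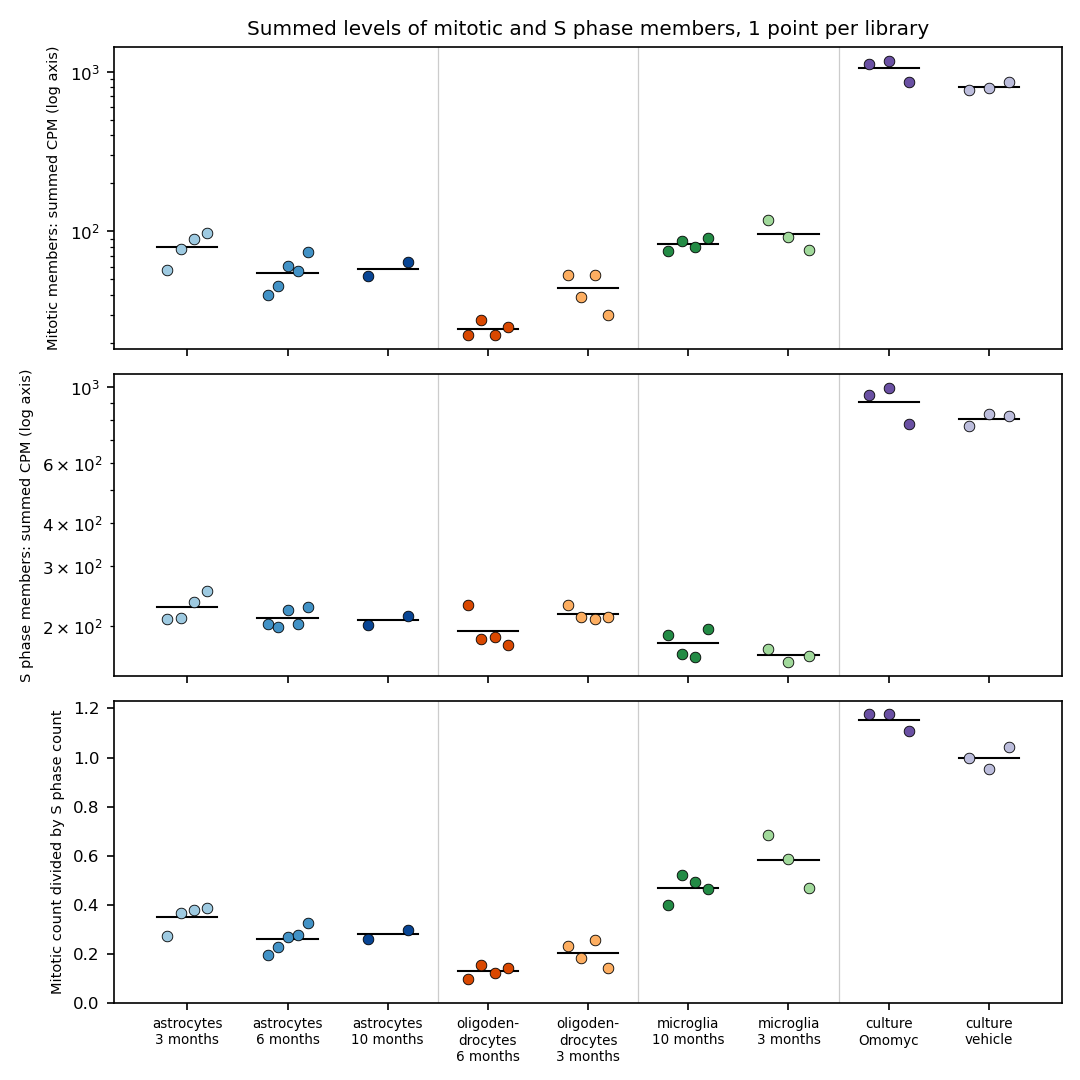
Summed CPM of the 23 mitotic members (top, log axis), of the 18 S phase members (middle, log axis) and the mitotic count divided by the S phase count (bottom) in each of the 32 libraries. Points are libraries and lines are group means. The mitotic sum averages 24.5 CPM in 6 month oligodendrocytes. In culture it averages 1049 CPM with Omomyc, and the vehicle libraries lie at 769 to 857 CPM. Culture levels are not compared with those of sorted cells, as the kits differ.

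Per length, in the authors' deposited TPM, the leading members in astrocytes of 3, 6 and 10 months were Pcna, the sliding clamp of DNA polymerase (71.2, 61.8 and 62.7 TPM), Cdk4 (43.2, 47.1 and 52.5), Ccnd2 (44.1, 44.6 and 47.2) and Mcm4, a subunit of the replicative helicase (38.5, 42.7 and 44.4). Pcna also led in oligodendrocytes, with 85.7 TPM at 6 months and 113 TPM at 3 months. The median member was at 1.69, 1.30 and 1.60 TPM in the mitotic class and 5.19, 4.85 and 5.18 TPM in the S phase class of astrocytes at 3, 6 and 10 months. In oligodendrocytes the mitotic median was 0.38 TPM at 6 months and 1.21 TPM at 3 months, and 16 of 23 mitotic members were under 1 TPM at 6 months against 9 of 23 at 3 months. The S phase median was 3.16 TPM at 6 months and 2.46 TPM at 3 months. The middle members were Cdk2 (4.09 TPM) and Ccne2 (2.22 TPM) at 6 months, and Cdk2 (2.67 TPM) and Tk1 (2.25 TPM) at 3 months. The difference between these medians thus came from Cdk2. Of 18 S phase members, 6 were under 1 TPM at 6 months and 5 at 3 months. The mitotic kinase gene Cdk1 was at 0.70, 0.54 and 0.47 TPM in astrocytes of 3, 6 and 10 months.

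In 6 month astrocytes 3 of the 41 members tested were lower than at 3 months, and 0 were higher. They were the mitotic genes Top2a and Mki67 and the S phase gene Pcna, and 38 did not pass. Over all 16189 genes tested, 14.6% were called, 8.29% as lower and 6.28% as higher, so the members' share lay under the background. Top2a, the topoisomerase that untangles sister chromatids, was at 5.66, 8.35, 10.3 and 12.6 CPM at 3 months, 2.05, 2.82, 4.64, 4.31 and 5.53 CPM at 6 months, and 3.61 and 6.05 CPM at 10 months. The 6 month libraries all lay under the 3 month ones, and the log2 change was -1.23 ± 0.26 (SE; adjusted p = 0.0053, edgeR quasi-likelihood F test with Benjamini-Hochberg adjustment over all genes). Mki67, which coats mitotic chromosomes and marks cycling cells, was at 5.66, 10.9, 15.5 and 17.3 CPM at 3 months, 2.35, 3.61, 6.89, 4.97 and 9.34 CPM at 6 months, and 3.40 and 4.84 CPM at 10 months. The lowest 3 month library lay within the 6 month range, and the change was -1.16 ± 0.33 (adjusted p = 0.0335). Pcna was at 48.9, 40.0, 52.4 and 62.9 CPM at 3 months, 42.6, 38.1, 39.4, 40.3 and 42.2 CPM at 6 months, and 33.1 and 43.8 CPM at 10 months, a change at 6 months of -0.36 ± 0.11 (adjusted p = 0.042).

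The median log2 change at 6 months was -0.46 over the 20 mitotic members tested (17 below 0), -0.04 over the 18 S phase members (12 below 0) and 0.00 over all genes (49.5% below 0). The kinetochore gene Cenpf was at 5.02, 7.94, 6.51 and 9.49 CPM at 3 months, 2.79, 2.82, 5.51, 6.03 and 5.45 CPM at 6 months, and 3.18 and 4.56 CPM at 10 months, and did not pass at 6 months (-0.65 ± 0.23, adjusted p = 0.0688). Cdk2, the partner of cyclins E and A, was at 7.63 to 10.9 CPM at 3 months, 11.2 to 15.04 CPM at 6 months and 12.7 to 13.5 CPM at 10 months, with no overlap between 3 months and the later ages and no call. At 10 over 3 months 24.3% of all genes stood higher without overlap. At 6 months the libraries did not overlap for 1 member above and 4 below the 3 month ones, against 6.03% and 6.27% of all genes. Mcm2 (-0.26 ± 0.15), Tyms (-0.04 ± 0.22), Ccnd2 (-0.12 ± 0.09) and Cdk4 (-0.02 ± 0.09) did not pass either. Top2a was called under all 18 alternatives (-1.43 to -1.01), Mki67 was lost in 5 and Pcna in 8, and only 1 member was called without 3 month replicate 3 or 4 or 6 month replicate 1, 2 or 4.

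**Figure D2:**
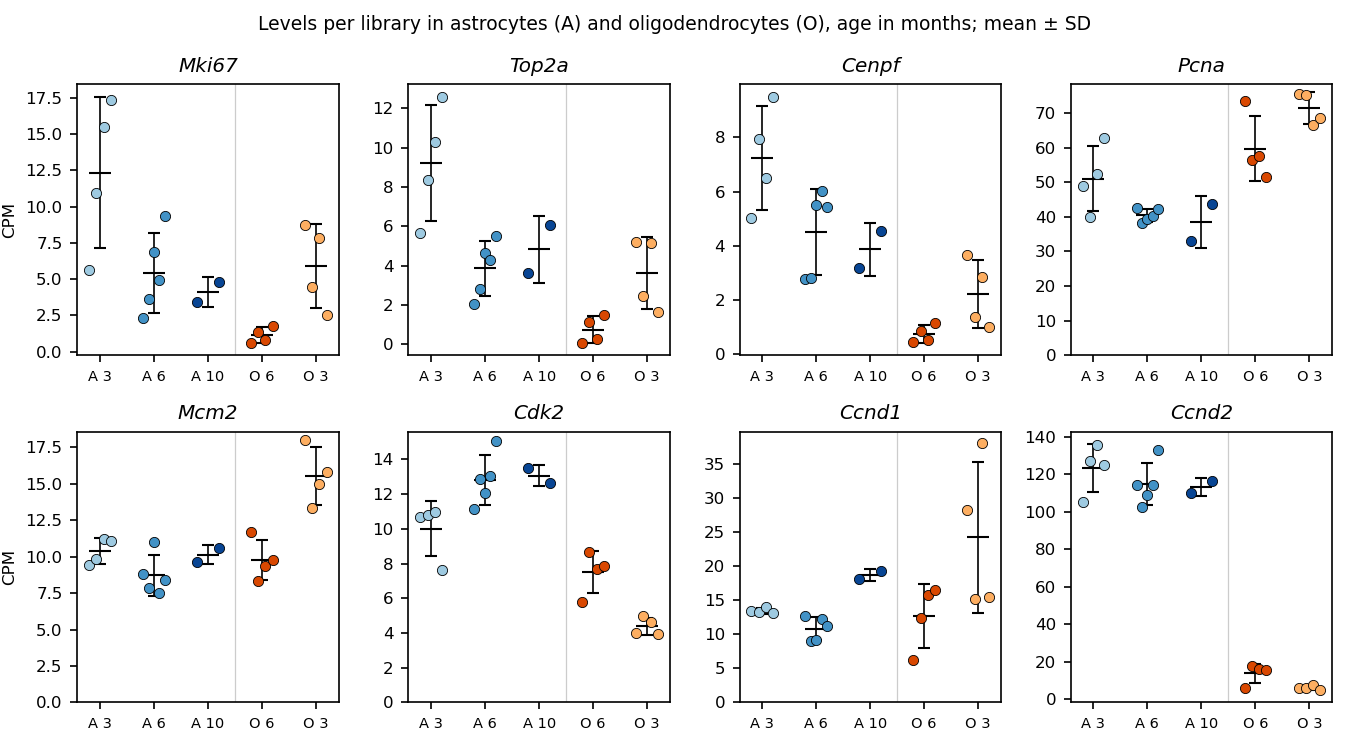
CPM of 8 members in each astrocyte (A) and oligodendrocyte (O) library, by age in months; points are libraries, bars the mean ± SD. Mki67, Top2a and Cenpf are highest in astrocytes at 3 months, and Ccnd2 lies between 103 and 136 CPM in the astrocyte libraries.

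Genes that control the cycle were called in both directions in 6 month astrocytes, at shares to be read against the 8.29% of all genes called lower and 6.28% called higher. The CDK inhibitor genes Cdkn1a, which encodes p21, and Cdkn1c, which encodes p57, were lower (8.00 ± 0.76 CPM at 6 months against 14.6 ± 4.93 CPM at 3 months, and 4.52 ± 0.80 CPM against 7.98 ± 2.55 CPM), 2 of the 6 tested in their list. Of 17 genes of the RB family, E2F and DREAM, 2 were lower, the pocket protein gene Rbl2 (-0.29 ± 0.08) and Tfdp2 (-0.30 ± 0.10), and 0 higher. Of 47 further kinetochore, spindle and exit factors, 2 were higher and 3 lower, with a median of -0.33. Wee1, the kinase that holds CDK1 inactive, rose (0.84 ± 0.20; 12.03 ± 1.98 CPM at 6 months against 6.65 ± 1.55 CPM at 3 months), and so did Cdc25b, the phosphatase that undoes its mark (0.50 ± 0.15). Anln fell by 0.98 on the log2 scale (220 ± 11.7 CPM at 6 months, against 430 ± 158 CPM at 3 months), and is a cytokinesis gene that mature oligodendrocytes also express. With 1 library left out, the call of Cdkn1c was lost for 3 month replicate 4 (-0.62), and those of Rbl2, Tfdp2 and Cdc25b for 5, 8 and 4 of the libraries, which all 3 include 3 month replicate 4 (-0.23, -0.20 and 0.45). Foxm1 (-0.63 ± 0.22, adjusted p = 0.0688), Mycn (-0.63 ± 0.24, adjusted p = 0.0785) and Myc (-0.09 ± 0.21) did not pass. In the same libraries the precursor markers summed to 492 to 634 CPM at 6 months, against 615 to 806 CPM at 3 months (1 of 11 lower), the myelin markers to 17236 to 25344 CPM and 24473 to 39787 CPM (5 of 10 lower), and the endothelial markers to 140 to 314 CPM and 183 to 364 CPM (2 of 10 lower), with no marker of these lists at 0. Their part in these results was not tested.

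At 10 months 4 members were called against 3 months, where 22.7% of all genes were (11.5% higher and 11.2% lower): Mki67 (-1.60 ± 0.48, adjusted p = 0.0278), Cenpf (-0.92 ± 0.32, adjusted p = 0.0473) and Pcna (-0.42 ± 0.15, adjusted p = 0.0495) lower, and the G1 gene Ccnd1, which encodes cyclin D1, higher (0.47 ± 0.16, adjusted p = 0.0455). These calls rest on 2 libraries at 10 months: 0 members were called without 10 month replicate 1 or without 3 month replicate 3 or 4, 1 without 10 month replicate 2 or 6 month replicate 4, and 2 without 3 month replicate 2 or 6 month replicate 3. With limma-voom 1 of the 4 was called, Ccnd1. The median was -0.24 over mitotic and -0.20 over S phase members. Against 6 months, where 0.908% of all genes were called (0.574% as higher), Ccnd1 was the 1 member called, as higher (0.80 ± 0.16, adjusted p = 0.0253). Ccnd1 was at 13.1 to 14.1 CPM at 3 months, 8.94 to 12.6 CPM at 6 months, and 18.05 and 19.3 CPM at 10 months, and the 3 ages did not overlap. Its call against 6 months was lost without 10 month replicate 1 or 2 (0.83 and 0.76) and without 6 month replicate 3 (0.73), and also when only these 2 ages were fitted (0.77). The contrasts at 10 months share those libraries, and those against 3 months share the 3 month ones. Bbc3, the apoptosis gene that p53 induces, was at 3.34 ± 0.54, 6.33 ± 1.80 and 11.4 ± 1.46 CPM at 3, 6 and 10 months and was called against 3 months at both later ages (0.90 ± 0.22 and 1.78 ± 0.26). At 10 months the D cyclin gene Ccnd3 (0.58 ± 0.15) and the chromatin assembly gene Chaf1a (0.79 ± 0.17, overlapping Ubxn6) were also higher, and Cdkn1b, which encodes p27, and Rb1 were lower (-0.39 ± 0.12 and -0.53 ± 0.15). Of these, Bbc3 was called with any 1 library left out, while Chaf1a was lost without 10 month replicate 1 (0.71), Ccnd3 without 10 month replicate 2 (0.39), and Rb1 (-0.53 and -0.53) and Cdkn1b (-0.34 and -0.44) without either.

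In 6 month oligodendrocytes 5 mitotic genes were lower than at 3 months and none was higher, while 1 S phase gene was lower and 1 higher. Of 32 members tested, 6 were lower and 2 higher, against 9.46% lower and 14.9% higher among all 14050 genes (24.4% called). The lower ones were Mki67, Top2a, Tpx2, Bub1b and Cenpf of 15 mitotic members tested, and Mcm2 of 14 S phase members. Cdk2 and Ccnd2 were the higher ones. The median change was -0.48 over mitotic members (14 of 15 below 0) and 0.12 over S phase members (6 of 14 below 0).

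Mki67 had 0.618, 1.39, 0.808 and 1.81 CPM at 6 months, against 8.73, 4.49, 7.81 and 2.56 CPM at 3 months. The ages did not overlap (-2.32 ± 0.44, adjusted p = 0.0047). Top2a had 0.0772, 1.15, 0.294 and 1.49 CPM at 6 months, against 5.21, 2.48, 5.14 and 1.63 CPM at 3 months (-2.25 ± 0.63, adjusted p = 0.0299). Within each age the 2 genes were lowest or highest in the same libraries. Tpx2, which nucleates spindle microtubules, had 3.17, 2.78, 2.20 and 2.44 CPM at 6 months, against 5.77, 4.28, 6.35 and 4.19 CPM at 3 months (-0.90 ± 0.21, adjusted p = 0.0127). Bub1b, the spindle checkpoint kinase gene, averaged 0.30 ± 0.26 CPM at 6 months, against 1.19 ± 0.29 CPM at 3 months (-1.83 ± 0.49, adjusted p = 0.0215). Cenpf averaged 0.75 ± 0.33 CPM at 6 months, against 2.22 ± 1.24 CPM at 3 months, with overlap (-1.54 ± 0.46, adjusted p = 0.0349). The calls of Mki67 and Tpx2 were kept under all 14 alternatives, while that of Top2a was lost in 4, that of Bub1b in 2 of 13 and that of Cenpf in 6. All 3 were lost without 3 month replicate 1 (-2.03, -1.72 and -1.20) or replicate 3 (-2.03, -1.76 and -1.40), Top2a and Cenpf also without 6 month replicate 3 (-2.00 and -1.42), and Cenpf without 6 month replicate 2 (-1.64).

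Mcm2, a helicase subunit and the S phase member with a CHR match in its promoter, was at 11.7, 8.34, 9.33 and 9.77 CPM at 6 months, against 18.03, 13.3, 14.998 and 15.8 CPM at 3 months (-0.61 ± 0.14, adjusted p = 0.0123). The groups did not overlap and the call was kept under all 14 alternatives. Cdk2 went the other way, with 5.79, 8.64, 7.71 and 7.86 CPM at 6 months, against 4.01, 4.96, 4.61 and 3.95 CPM at 3 months (0.83 ± 0.16, adjusted p = 0.00501). Ccnd2, which encodes cyclin D2, had 5.95, 17.5, 15.8 and 15.4 CPM at 6 months, against 5.70, 5.81, 7.29 and 4.73 CPM at 3 months (1.26 ± 0.29, adjusted p = 0.0122). Its 6 month replicate 1 lay within the 3 month range and the other 3 libraries above it. Over the 32 members tested, libraries did not overlap for 3 above and 7 below, against 11.7% and 16.6% of all genes tested. Ccnd1 (-0.89 ± 0.38, 12.7 ± 4.65 CPM at 6 months, against 24.3 ± 11.1 CPM at 3 months) and Pcna (-0.20 ± 0.11) did not pass.

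The filter on low counts left out 12 members, 8 of them mitotic. With no filter 13 members were called, 11 lower, adding Ube2c (5 counts in all at 6 months and 52 at 3 months), Cdk1 (15 and 64), Aurkb (4 and 32), Ccnb1 (11 and 47) and Kif11 (10 and 44). Without 6 month replicate 1, 13 members were called as well, 11 lower: the 8 above with Cdc20 (-0.80 ± 0.28), Kif11 (-1.47 ± 0.53), Rrm2 (-1.43 ± 0.44), Rrm1 (-0.33 ± 0.10) and Pcna (-0.33 ± 0.08). The S phase median was then -0.07 and the mitotic median -0.60. The S phase median was also below 0 without 6 month replicate 2 or 3 (-0.00104 and -0.08), while the mitotic median stayed between -0.64 and -0.36 with any 1 library left out. Without 3 month replicate 3, 5 members were called, 3 of them lower. Over all genes, 2214 to 4925 were called with 1 library left out, against 3425 with every library. The member counts above are to be read against this range. The share of all genes called without the filter is not given here.

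The lists of cycle regulators are to be read against the 14.9% of all genes called higher and 9.46% called lower in these oligodendrocytes. Mycn fell by 1.31 on the log2 scale (SE 0.29, adjusted p = 0.00945; 1.92 ± 0.68 CPM at 6 months, against 4.90 ± 1.35 CPM at 3 months), and Myc did not pass (0.01 ± 0.23). Of the p53 list 5 of 12 were higher and 1 lower, among them the anti-proliferative gene Btg2 (44.7 ± 11.1 CPM at 6 months, against 18.8 ± 4.49 CPM at 3 months) and Plk2 (12.98 ± 3.44 and 5.10 ± 1.34 CPM). Cdkn1c was lower again (22.3 ± 4.38 CPM at 6 months, against 46.1 ± 9.06 CPM at 3 months). Lin54 (-0.31 ± 0.08) was lower, and E2f6, an E2F repressor (0.31 ± 0.10), and Tfdp2 (0.30 ± 0.07) were higher. The replication factor genes Gins4 (-0.37 ± 0.09) and Gins2 (-1.07 ± 0.32, overlapping Gse1), 2 of 28 licensing and fork factors, were lower. Of 35 kinetochore, spindle and exit factors 4 were lower, including Cdca3 (-1.04 ± 0.31) and the lamin gene Lmnb1 (-0.42 ± 0.10), and 1 higher, Kif4 (1.88 ± 0.38), which overlaps Pdzd11 on the other strand. Ccnd3 (0.50 ± 0.12) and Cdk6 (2.06 ± 0.51) were higher. With 1 library left out, the call of Ccnd3 was lost for 6 month replicate 3 (0.38), and those of E2f6, Gins2 and Cdca3 for 6, 7 and 4 of 8 libraries, among them 3 month replicates 1 and 3 and 6 month replicates 2 and 3.

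Other cell types moved with age in these sorts. All 10 endothelial markers were higher (sum 247 to 681 CPM at 6 months, against 68.2 to 90.5 CPM at 3 months), as were 5 of 7 mural and fibroblast markers tested (sum 147 to 340 CPM and 51.8 to 85.5 CPM). Of 11 precursor markers 3 were lower and 0 higher, and their sum was 1085 to 1578 CPM at 6 months, against 1631 to 1978 CPM at 3 months, without overlap. The neuroblast and progenitor markers summed to 45.03 to 117 CPM at 6 months, against 176 to 212 CPM at 3 months (3 of 7 lower, 1 higher). No endothelial or precursor marker was at 0 in any library. The part of these cells in the member changes was not tested.

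At both ages a smaller share of the members than of all genes was called between the cell types. The called mitotic members were mostly higher in astrocytes, and the called S phase members differed in both directions. In a joint fit of 17 libraries, 13 of 42 members were higher in astrocytes than in oligodendrocytes at 3 months and 5 lower, where 34.2% of all 16363 genes were higher and 30.8% lower (65.0% called). At 6 months 20 were higher and 7 lower (36.6% and 33.4% of all genes, 70.0% called). Among mitotic members 5 were higher and 0 lower of 21 at 3 months, and 11 higher and 2 lower at 6 months, with medians of 0.39 and 1.10. The share of mitotic members called higher at 3 months lay under that of all genes. More mitotic and S phase members were tested here than in oligodendrocytes alone. Those under the filter there, the mitotic Kif11 and the S phase Rrm2 among them, entered through their level in astrocytes, which bears on their direction. The libraries did not overlap for 12 members above and 5 below at 3 months (31.0% and 30.3% of all genes) and 17 above and 2 below at 6 months (30.8% and 25.1%). Ccnd2 was far higher in astrocytes at both ages, at 93.9 to 123 CPM in astrocytes and 5.26 to 8.39 CPM in oligodendrocytes at 3 months (4.05 ± 0.22), and at 91.7 to 121 CPM and 6.77 to 18.8 CPM at 6 months (2.75 ± 0.20). Kif11, the motor that pushes spindle poles apart, was at 3.07 to 3.93 CPM in astrocytes and 0.473 to 0.862 CPM in oligodendrocytes at 3 months (2.18 ± 0.32), and at 2.85 to 6.68 CPM and 0.0804 to 0.471 CPM at 6 months (4.24 ± 0.39). The S phase transcription factor gene E2f1 (2.04 ± 0.25 at 3 months), the nucleotide synthesis genes Rrm2 (1.94 ± 0.27) and Tyms (1.63 ± 0.24) and Cdk2 (0.84 ± 0.17) were also higher in astrocytes.

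Oligodendrocytes had more Pcna (45.3 ± 8.01 CPM in astrocytes and 81.1 ± 5.49 CPM in oligodendrocytes at 3 months), Mcm2 (9.21 ± 0.81 and 17.6 ± 1.97 CPM) and Ccnd1 (11.96 ± 0.58 and 27.6 ± 12.8 CPM). Rrm1 and Mcm7, which overlaps Ap4m1 and Cops6, were the other lower members at 3 months. Cdk4, the kinase of the D cyclins, did not pass at either age (-0.07 ± 0.09 and 0.03 ± 0.08). Per length, in the authors' deposited TPM, Ccnd2 stood above Ccnd1 in astrocytes (44.1 and 9.60 TPM at 3 months), and Ccnd1 above Ccnd2 in oligodendrocytes (19.6 and 2.37 TPM at 3 months, 9.13 and 4.88 TPM at 6 months). Cdk6, the other D cyclin kinase gene, was higher in astrocytes (3.31 ± 0.48 at 3 months), and Cdkn1c lower (-2.83 ± 0.19). Within the licensing and fork factors 2 of 31 were higher in astrocytes and 12 lower at 3 months, among them Gins4 (-1.11 ± 0.10) and the ligase gene Lig1 (-0.99 ± 0.13).

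The age effect itself differed between the cell types for 3 members, where it did for 16.4% of all genes (6.44% above and 9.97% below 0). The effect in astrocytes lay above that in oligodendrocytes for Kif11 (2.06 ± 0.54, adjusted p = 0.0127) and Mcm3 (0.53 ± 0.18, adjusted p = 0.0448), and below it for Ccnd2 (-1.29 ± 0.29, adjusted p = 0.00499). Kif11 was at 4.25 ± 1.44 CPM at 6 months, against 3.45 ± 0.36 CPM at 3 months, in astrocytes. In oligodendrocytes it was at 0.225 ± 0.184 CPM at 6 months, against 0.759 ± 0.190 CPM at 3 months. The difference for Mki67 was 1.25 ± 0.63 (adjusted p = 0.19) and for Top2a 1.11 ± 0.66 (adjusted p = 0.271), so the fall of these genes was not shown to differ. The calls of Kif11 and Ccnd2 held in all 23 alternatives, and that of Mcm3 was lost in 17. In oligodendrocytes fitted alone Kif11 was under the filter, with 10 counts in all at 6 months and 44 at 3 months. The alternatives for Kif11 all rest on those few counts. Without 6 month oligodendrocyte replicate 1, 5 members were called.

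**Figure D3:**
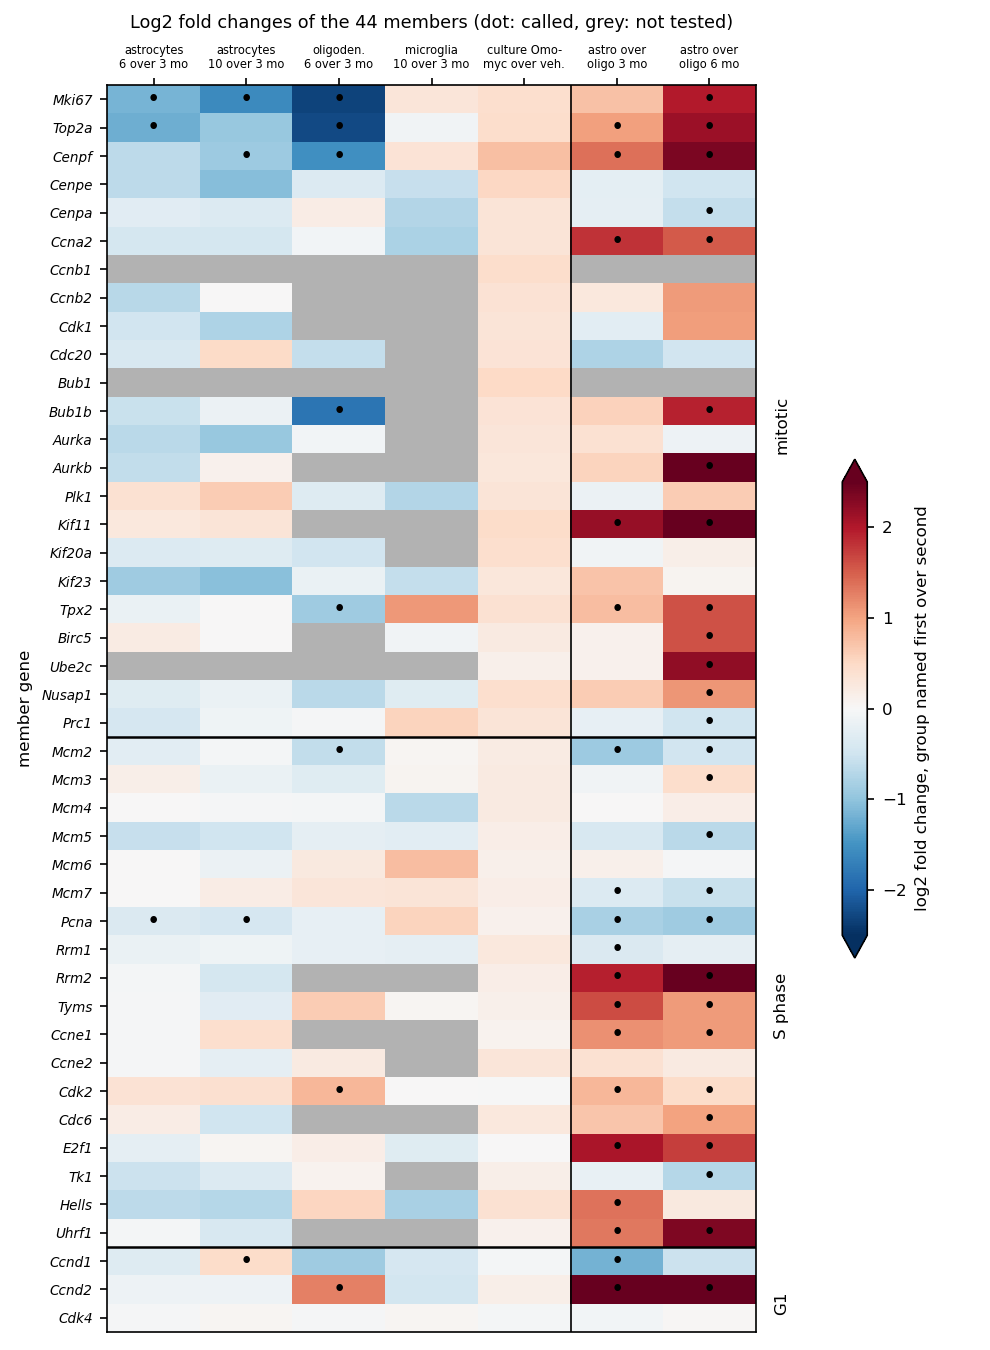
Log2 fold change of each member (rows, by class) in 7 comparisons (columns), red where the group named first is higher; dots mark calls at adjusted p under 0.05 and grey cells genes under the filter. The columns of astrocytes and oligodendrocytes at 6 over 3 months are mostly blue in the mitotic block, and the Omomyc column is red in all 23 mitotic rows with no call.

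In microglia 0 of 27 members tested were called between 10 and 3 months, where 3.21% of 12320 genes were, 1.94% as higher and 1.27% as lower (edgeR; 1 member at an unadjusted p under 0.05, against 16.9% of all genes, and 0 members in DESeq2). Microglia are the resident macrophages of the brain. Top2a was at 18.8, 20.6, 23.4 and 23.4 CPM at 10 months, against 28.4, 22.1 and 17.6 CPM at 3 months (-0.09 ± 0.26). Mki67 was at 3.72, 3.83, 3.26 and 5.98 CPM at 10 months, against 3.59, 4.21 and 2.32 CPM at 3 months (0.30 ± 0.62). The groups overlapped for both. Ccnd1, the member with the most counts there, was at 198, 218, 208 and 181 CPM at 10 months, against 209, 308 and 281 CPM at 3 months (-0.42 ± 0.14, adjusted p = 0.121), and was called without 3 month replicate 1 (-0.56). Plk1, the polo kinase gene, was at 3.72 to 6.39 CPM at 10 months, against 7.54 to 9.74 CPM at 3 months, without a call (-0.74 ± 0.44). It was the 1 member whose groups did not overlap, against 9.00% of all genes above and 7.65% below. The median was -0.20 over 12 mitotic and 0.03 over 12 S phase members. With an SE of 0.62 for Mki67 and 1.07 for Mcm2, a change of 2-fold in the scarcer members was not detectable at this depth. Of the other lists, Cdk6 fell by 0.58 on the log2 scale (125 ± 13.1 CPM at 10 months, against 186 ± 38.7 CPM at 3 months) and the tubulin gene Tubb5 rose (0.96 ± 0.20). Both calls were lost without 10 month replicate 1, 3 or 4 or 3 month replicate 3 (-0.60 to -0.43 for Cdk6 and 0.83 to 0.99 for Tubb5), and Cdk6 also without 3 month replicate 2 (-0.56). The 10 astrocyte markers summed to 256 to 332 CPM at 10 months, against 187 to 198 CPM at 3 months, and their part was not tested.

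With Omomyc all 23 mitotic members were above 0 and none passed. No member of 44 was called by edgeR without a term for the replicate number, where 0.0186% of 16119 genes were called (3, all lower). At an unadjusted p under 0.05, 17 of 23 mitotic and 2 of 18 S phase members stood higher, against 3.02% of all genes. The median log2 change was 0.35 over mitotic members (0.13 to 0.76), 0.16 over S phase members, -0.05 over the G1 members and 0.00 over all genes. Libraries did not overlap for 10 mitotic and 0 S phase members, against 6.20% of all genes in that direction and 6.62% in the other. DESeq2 called 1 member, Cenpf, and 0.602% of all genes.

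Same-numbered Omomyc and vehicle libraries deviated together, so the numbers were taken as pairs. The labels give only replicate numbers and do not state a pairing. With the pair as a block 4.07% of all genes were called (2.23% higher and 1.84% lower) and 2 members, both mitotic and higher: Cenpf (0.74 ± 0.14, adjusted p = 0.025) and Kif11 (0.46 ± 0.10, adjusted p = 0.0439). Cenpf was at 36.2, 36.8 and 23.9 CPM with Omomyc and 20.1, 17.5 and 19.8 CPM with vehicle, for numbers 1, 2 and 3. Kif11 was at 49.2, 51.0 and 37.4 CPM with Omomyc and 35.6, 30.8 and 33.2 CPM with vehicle. Top2a was at 155, 154 and 113 CPM with Omomyc and 105, 96.6 and 109 CPM with vehicle. In each gene the Omomyc library of number 3 lay nearest to vehicle. Mki67 was at 80.4, 74.3 and 56.0 CPM with Omomyc and 57.6, 41.4 and 59.6 CPM with vehicle, so number 3 went the other way.

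The whole class showed the same split. Within numbers 1 and 2, 23 of 23 mitotic members were higher with Omomyc, with medians of 0.54 and 0.53, and 17 of 18 S phase members, with medians of 0.29 and 0.30. Within number 3, 13 of 23 mitotic members were higher (median 0.01) and 3 of 18 S phase members (median -0.08). Over all genes the 3 medians lay between -0.01 and 0.01. Mcm2 was at 57.6, 61.4 and 44.3 CPM with Omomyc and 47.3, 47.6 and 47.7 CPM with vehicle. The pooled class medians thus rest on 2 of 3 pairs.

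**Figure D4:**
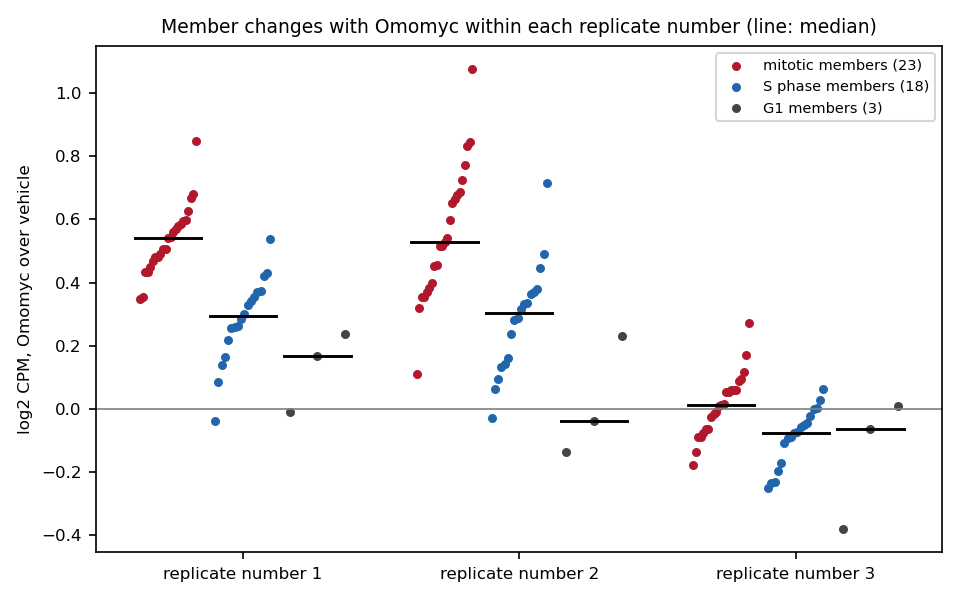
Log2 ratio of CPM, Omomyc over vehicle, of each member within each replicate number; points are genes, by class, and lines class medians. The mitotic median is 0.54, 0.53 and 0.01 for numbers 1, 2 and 3, and the S phase median 0.29, 0.30 and -0.08.

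Of the G1 members, Ccnd2 showed the same split, and Ccnd1 and Cdk4 did not. Ccnd2 was at 882, 906 and 738 CPM with Omomyc and 749, 773 and 771 CPM with vehicle, for numbers 1, 2 and 3 (0.14 ± 0.10, not passed). Ccnd1 was at 1184, 1117 and 717 CPM with Omomyc and 1055, 1148 and 934 CPM with vehicle. Cdk4, whose promoter holds the E-box, was at 122, 123 and 129 CPM with Omomyc and 122, 136 and 128 CPM with vehicle. Myc was at 33.9 ± 2.52 CPM with Omomyc and 32.3 ± 0.72 CPM with vehicle (SD, n = 3 each; 0.07 ± 0.08). With the block, Mycn (-0.79 ± 0.17, adjusted p = 0.0439), the p53 target Gadd45a (-0.60 ± 0.07, adjusted p = 0.0058) and Cdkn2b, which encodes the CDK inhibitor p15 (-0.44 ± 0.08, adjusted p = 0.0197), were lower in all 3 pairs. The E2F repressor gene E2f7 (0.61 ± 0.13) and the mitotic genes Kif14 (0.62 ± 0.13) and Ckap2l (0.50 ± 0.10) were higher, 2 of 53 kinetochore, spindle and exit factors. These dividing cultures also held other cells: 10 microglia markers summed to 1974, 2328 and 3827 CPM with Omomyc and 1709, 2047 and 3051 CPM with vehicle, and 5 of them were higher with the block. That sum was higher with Omomyc within every number and highest in number 3, where the mitotic change was smallest. Its part in the member changes was not tested.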

How the data were processed

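The tables as deposited by the authors give each library's raw count for every gene, not normalized. Their deposited TPM values were used only to order genes within sorted astrocytes and oligodendrocytes. Per the submitters' processing notes, reads went through featureCounts 2.0.1, STAR 2.7.7a, fastp, DESeq2 and UMI-tools 1.0.1. These notes name mm10, GRCm38.p6 and GRCm39 without saying which table used which, and the build of each table is not known here. Per the labels' protocols, astrocyte and oligodendrocyte libraries carry molecular identifiers, a 3′ kit served for microglia, and another kit for the cultures.

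Ensembl identifiers in the microglia and culture tables were matched to symbols. Each table was fitted alone in edgeR 4.0.16 (R 4.3.3) with TMM factors, filterByExpr at a minimum count of 10 and a robust quasi-likelihood F test, two-sided, called at an adjusted p under 0.05 over all its genes. The 3 astrocyte ages shared 1 fit, and the 17 libraries of astrocytes and oligodendrocytes at 3 and 6 months entered 1 joint fit. Errors of log2 changes are SEs, those of levels SDs. The script was tested on simulated data. One microglia row without a symbol took 17.9% to 27.0% of counts there.

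The members and lists were chosen with earlier results of these data known. Named genes were up to 6 called members of a comparison and class by p, 10 fixed members, up to 4 called genes of each regulator list, and Myc, Mycn, Cdkn1a and Foxm1; others are named where a count or library result needs them, after their values were seen. Deviations of same-numbered culture libraries from their group means correlated at 0.63, 0.43 and 0.68, so the numbers were taken as pairs there. Alternatives were RLE scaling, library size only for summed levels, DESeq2 1.42.0, limma-voom 3.58.1, a floor of 1 CPM in place of the filter or none at all, the replicate block, only the 2 groups compared, and each library left out. Counts bound the precision of levels, and no 2 libraries were identical.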

Additional observations from a re-analysis of the deposited data

Results flagged for a closer look

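In oligodendrocytes at 6 months, replicate 1 lay far from the others for Cdkn1a, at 203 CPM against 20.1 to 24.5 CPM, and for Tyms, at 1.47 CPM against 1.15 to 1.17 CPM. Each check took 1 gene or class sum within 1 group of 4 or 5 libraries. Of 81 such checks 2 were marked in this way, and chance gives about 1 in 20, or 4.05. That count does not settle the cause of either value, and this library also stood apart across genes. The age effect at 6 over 3 months was compared between astrocytes and oligodendrocytes in the joint fit (edgeR, astrocytes minus oligodendrocytes). It differed for 16.4% of all genes and for 3 members: Kif11 (2.06), Mcm3 (0.53) and Ccnd2 (-1.29). In oligodendrocytes Kif11 had only 10 counts in all at 6 months and 44 at 3 months. The age effect also differed for the regulators Tfdp2 (-0.51), Plk2 (-1.23), Btg2 (-0.92), Cdk6 (-1.95) and Kif4 (-2.60), where astrocytes lay below oligodendrocytes in this effect. Astrocytes lay above for Gins2 (1.24), Ccnh (0.45), Kif2c (2.80) and Nuf2 (1.28). Adjusted p lay between 0.00165 for Kif4 and 0.0491 for Gins2.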

How the results depend on the processing

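Members called were counted again under every alternative. The calls over all genes moved as well, in oligodendrocytes between 2214 and 4925 with 1 library left out, against 3425. Against the main 4, astrocytes at 10 over 3 months gave 1 with limma-voom and 1 with the replicate block. Against the main 1, 10 over 6 months gave 0 with the block and 0 with only the 2 groups compared. Oligodendrocytes gave 13 without the filter on low counts, against 8. Omomyc gave 1 with DESeq2 and 2 with the block, against 0. The difference of age effects gave 5 with DESeq2, against 3. Leaving out 1 library gave 1 to 3 members in astrocytes at 6 over 3 months, 0 to 5 at 10 over 3 months, 0 to 1 at 10 over 6 months, 5 to 13 in oligodendrocytes, 0 to 1 in microglia, 0 to 0 with Omomyc, 16 to 19 and 24 to 28 between the cell types at 3 and 6 months, and 2 to 5 for the difference of age effects. The summed S phase level of 10 month astrocytes was 220 CPM with library size only, against 208 CPM. Cdkn1a in oligodendrocytes changed sign without 6 month replicate 1 (0.53 with all libraries, and -1.09 to 0.80 with 1 left out). The cause was not tested. Among single genes, 4286 values kept direction and side of the threshold, 300 lost and 20 gained a call, and 1 changed sign. Outside the culture the numbers share only a label: deviations of same-numbered libraries correlated at -0.17 to 0.13 in astrocytes, -0.12 to 0.18 in oligodendrocytes and -0.04 to 0.02 in microglia. Depth limits scarce mitotic members in oligodendrocytes at 6 months, where Aurkb and Bub1 had 4 counts each in all, and in the shallower microglia libraries, where Bub1 had 0 counts at 10 months and Kif20a 0 at 3 months.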
